A study of Mus musculus with 18 samples.

Results

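The genes described here encode the proteins of the cytosolic ribosome. They were chosen by symbol: protein-coding genes named Rpl, Rps, Rplp or Rpsa, without the Rps6k kinases and without symbols that carry the pseudogene mark -ps. The rule found 86 genes among the 34162 in the table. By symbol, 52 belong to the large subunit and 33 to the small subunit. The remaining one, Rps19bp1, fits the rule by its symbol alone, since it encodes a binding partner of Rps19 and not a ribosomal protein. Fau and Rack1, which encode ribosomal proteins under other names, are outside the rule and are given separately.

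Messenger RNA was measured in 18 libraries of about 500 sorted CD4+ effector T cells each, 3 weeks after transfer into Rag-deficient mice, hosts without lymphocytes. The cells were either C57BL/6 CD45.1+ wild type (WT) cells or CARko cells, which lack the nuclear receptor CAR encoded by Nr1i3. They came from spleen, colon lamina propria (cLP) or small intestine lamina propria (siLP), the connective tissue under the gut epithelium. Each of the 6 combinations holds 3 libraries, and the labels do not say whether these came from separate hosts, so every p-value measures the spread between these libraries, which may be technical.

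A ribosome joins a small subunit, which reads the messenger RNA, to a large subunit, which forms the peptide bonds. The cell makes the ribosomal proteins in matched amounts and joins them to ribosomal RNA in the nucleolus. Most of their messenger RNAs are short and begin with a C followed by a run of pyrimidines, the terminal oligopyrimidine (TOP) motif, through which mTORC1 and LARP1 govern their translation. Activated T cells enlarge their ribosome pool as they grow.

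The promoters show that start for part of the genes. RefSeq promoters of GRCm38.p6 were at hand for 66 of the 86 genes, as 78 promoters. A C and 4 pyrimidines stood exactly at the annotated start in 14 of the 66 genes, which is 17.9% of their promoters against 2.51% of all 32851 mouse promoters in the table. Within 10 bases of the start the share was 53.8% against 30.7%. The ETS core CCGGAAG, searched on both strands of the whole window, was in 34.6% of the genes' promoters and in 8.86% of all. The YY1 core AAGATGGC was in 10.3% and 2.75%, and the TATA box TATAAA in 8.97% and 13.6%. These are matches of letters, on both strands for the last 3, and do not show binding. The following windows run from 50 bases before the start to 25 bases from it. They are from some of the genes named further on that have the C and pyrimidines exactly at the start, with the pyrimidine run in capitals. Rpl28, Rpl35a, Rpl38 and Rps21, also named further on, have a promoter with that start too and are not shown. Other genes named further on, among them Rps7, Rps27l, Rpl7l1, Rps4x, Rps2 and Rplp0, lacked that start in their promoters and are not shown.
Rps6 (chr4:86857343-86857417, minus strand): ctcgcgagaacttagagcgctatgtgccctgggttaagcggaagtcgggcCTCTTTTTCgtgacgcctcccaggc
Rpl35 (chr2:39005107-39005181, minus strand): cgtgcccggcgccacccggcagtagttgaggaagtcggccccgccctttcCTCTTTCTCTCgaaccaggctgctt
Rpl14 (chr9:120571467-120571541, plus strand): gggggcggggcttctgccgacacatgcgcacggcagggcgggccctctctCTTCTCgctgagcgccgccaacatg
Rplp2 (chr7:141447601-141447675, plus strand): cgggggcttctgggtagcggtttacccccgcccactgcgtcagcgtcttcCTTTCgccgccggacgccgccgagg
Rps27 (chr3:90213624-90213698, minus strand): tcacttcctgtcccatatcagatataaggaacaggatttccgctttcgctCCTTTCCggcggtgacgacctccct
Rps27rt (chr9:114982715-114982789, minus strand): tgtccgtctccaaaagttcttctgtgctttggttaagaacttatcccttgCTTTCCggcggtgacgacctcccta

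Some facts of all libraries bear on what follows. Total estimated counts ran from 19605135 to 25436389. The columns carry no replicate numbers, so the 3 libraries of a group are called a, b and c by the ending of the column name, which is no claim about a shared host or day. The 6 a libraries detected fewer genes, 15466 to 16127 against 17013 to 18819 in the other 12. Nr1i3, the targeted gene, did not check the labels: it was at 0 to 1.66 CPM (counts scaled to library size) in WT and at 0 to 9.48 CPM in CARko, the highest being the library labelled CARko a of siLP. The sources used here do not say which part of the gene was deleted, so CARko below means the label. In the division of counts between Rps7 and its copy, given further on, the 3 CARko libraries with ending c lay among the WT libraries. Nothing here ties that division to the CAR genotype, so it does not check the labels. Whether the 3 CARko libraries with ending c carry the labelled genotype was not tested. Every CARko value thus rests on the labels, and the genotype results are also given without the c libraries. The WT and CARko cells also differ in CD45.1 status. Other differences between the donor lines, such as strain, cannot be told apart from loss of CAR. T cell markers (7 genes) summed to 7656 to 16965 CPM, and Cd4 was at 108 to 236 CPM. Erythroid markers (6 genes) summed to 0.453 to 2319 CPM and were lower in both gut sites than in spleen, with 4 of 6 past the threshold in each. Stromal and endothelial markers (5 genes) summed to 47.4 to 1178 CPM, and 3 of the 4 tested were higher in cLP than in spleen.

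Ribosomal protein messages took a like part of the counts in all 6 groups, and the groups overlapped. Their share of all counts ran from 4.06% to 6.28%, with a median of 5.23%. In spleen it was 5.63%, 4.51% and 6.27% in WT a, b and c, and 5.74%, 4.80% and 5.25% in CARko. In cLP it was 6.16%, 4.18% and 5.12% in WT, and 6.12%, 4.26% and 5.07% in CARko. In siLP it was 5.35%, 4.71% and 6.28% in WT, and 5.20%, 4.06% and 6.08% in CARko. The group means lay between 5.12% ± 1.02 (SD, n = 3, siLP CARko) and 5.47% ± 0.893 (SD, n = 3, spleen WT), so they differed by less than the SD of every group, the smallest of which was 0.472 (spleen CARko). The b library was the lowest of its group in all 6 groups.

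**Figure D1:**
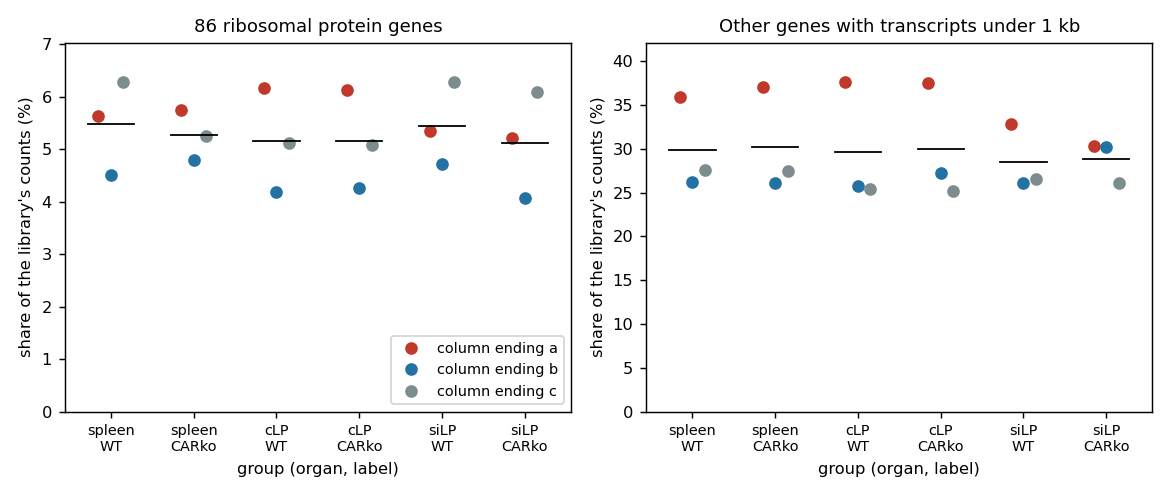
Share of each library's estimated counts, in percent, that fell on the 86 ribosomal protein genes (left) and on other genes whose transcript is under 1 kb (right), by group; each point is 1 library, coloured by column ending, and the bar is the group mean. On the left every b library is the lowest of its group, and on the right the a library is the highest of its group in all 6.

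Per transcript length the genes spanned a wide range. The median gene stood at 797 CPM per kilobase, averaged over the 18 libraries. The highest were Rps27rt at 2928, Rps19 at 2551, Rps14 at 2490 and Rpl32 at 2308 CPM per kilobase. Rps19 and Rps14 are small-subunit proteins needed for the maturation of its RNA. The 5 lowest were the paralogs Rpl10l at 0.0528, Rpl3l at 0.104 and Rpl39l at 0.617, then Rpl5 at 8.36 and Rpl12 at 16.8 CPM per kilobase. Rpl10l and Rpl3l did not pass the filter on low counts, which left 84 genes tested. Rpl39l passed it although it was at 0 in 8 of 18 libraries and at most 1.18 CPM. The low levels of Rpl5 and Rpl12 go with near-identical copies elsewhere in the genome that hold most of the shared counts. Lengths come from the shortest consensus coding transcript of GENCODE vM21, and that of Rps20 is long, at 3706 bases, so its 112 CPM per kilobase may understate it.

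Copies take up a large part of what some of these genes might be assigned. For 77 of the 86 genes at least 1 copy outside the list matched the coding sequence at 95% identity or more over 80% or more of its length, 529 copies in all. At 20 CPM or more were 35 of these, belonging to 32 genes. In 11 genes the copies together held more counts than the gene itself. All 529 copies took 0.664% to 1.15% of a library's counts, beside 4.06% to 6.28% on the 86 genes. Rpl5, which brings 5S RNA into the large subunit, held 1.90% of its counts shared with Gm15500 (median over 18 libraries), and Rpl12, a stalk-base protein, 5.63% of those shared with Gm10275. Rpl10 held 14.4% of those shared with Rpl10-ps3, and Rpl35 13.8% to 18.1% (lowest and highest library) of those shared with Gm2000. Within the list, Rps27 held 15.6% of the counts shared with Rps27rt, whose coding sequence is identical to it over the aligned length. The files do not show how a read that fits both was divided, so levels of such genes are uncertain. When each gene was summed with its copies, an alternative chosen after the data were seen, the counts of calls given below for organ and genotype did not change.

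The paralogs kept a place beside their partners that differed from pair to pair. Rpl36al, a near-twin of the X-linked Rpl36a, held 71.9% to 82.1% of the pair's CPM per kilobase across libraries. Rpl22l1, the paralog of the RNA-binding protein Rpl22, held 45.6% to 66.1%. Rps27l, a paralog of Rps27 that is known as a p53 target, held 26.6% to 66.0% of its pair, the widest range. Rps27rt is left out of that pair, and Rps27 held only 12.7% to 18.8% of the counts shared with it. The place of Rps27l beside Rps27 is thus uncertain. Rpl7l1 held 3.70% to 10.1% beside Rpl7. Rpl39l, Rpl3l and Rpl10l, known from testis or muscle, each held under 1% in every library, at most 0.899%, 0.206% and 0.116%.

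No ribosomal protein gene passed the threshold between CARko and WT. The question was whether loss of CAR goes with a change in these T cells. Averaged over the 3 organs, 0 of 84 genes passed (edgeR quasi-likelihood test, Benjamini-Hochberg over 14876 genes, threshold 0.05), beside 0.0134% of all genes tested. An unadjusted p under 0.05 was found for 2 of the 84 genes, beside 5.77% of all genes. Within siLP, cLP and spleen 0 of 84 passed, beside 0% of all genes in each. There 0, 1 and 0 genes had an unadjusted p under 0.05, beside 4.31%, 2.44% and 1.95% of all genes. DESeq2 also gave 0 in all 4 comparisons, as did the fit without the 6 c libraries, an alternative added after the data were seen. The median log2 fold change was -0.07 on average over organs, against -0.01 over all genes tested, and 22 of 84 genes were above 0. Without 1 library this median ran from -0.19 (without cLP CARko a) to 0.09 (without cLP WT a), and it was also above 0 without spleen WT a, at 0.006, so its sign rests on single libraries. Without the c libraries it was -0.04. The large subunit's median was -0.07 and the small subunit's -0.06. The precision was better than that of most genes: the median standard error was 0.21, against 0.45 over all genes. In 82 of 84 genes the 95% interval of the averaged difference lay inside a 2-fold change, that is between -1 and 1 on the log2 scale. Only Rps7 and Rpl39l had an interval reaching beyond that. Within siLP, cLP and spleen alone, the interval lay inside a 2-fold change in only 53, 54 and 56 of the 84 genes.

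Rps7, a small-subunit protein that is also known to bind Mdm2, had the smallest p of the genotype comparison and did not pass. Its WT libraries a, b and c stood at 603, 381 and 570 CPM for spleen, 639, 394 and 490 CPM for cLP, and 559, 366 and 585 CPM for siLP. Its CARko libraries stood at 307, 245 and 460 CPM for spleen, 389, 200 and 413 CPM for cLP, and 219, 164 and 514 CPM for siLP. The c libraries of CARko lay inside the WT range, and in each organ the a and b libraries of CARko lay below their WT counterparts. The log2 fold change averaged over organs was -0.66 (SE 0.24, edgeR adjusted p = 0.685), and -0.98 without the 6 c libraries (edgeR adjusted p = 0.499).

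The Rps7 counts have to be read beside Gm6472, a transcribed processed pseudogene on the X chromosome (chrX:152909505-152910155, minus strand, mm10) with the same coding length as Rps7, 582 bases. Rps7 itself is on chromosome 12. Their sequences in GENCODE vM21 differ by 3 substitutions, counted from the first base of the start codon with the Rps7 base first: T26G, G48A and G123T. Windows of 31 bases around each are shown because they hold every difference within the coding sequence, with the differing base in capitals.
Rps7, bases 11 to 41: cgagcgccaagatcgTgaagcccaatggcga
Gm6472, the same bases: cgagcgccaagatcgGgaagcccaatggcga
Rps7, bases 33 to 63: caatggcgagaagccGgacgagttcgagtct
Gm6472, the same bases: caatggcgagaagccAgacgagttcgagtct
Rps7, bases 108 to 138: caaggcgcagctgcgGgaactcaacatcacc
Gm6472, the same bases: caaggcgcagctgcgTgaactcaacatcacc

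Out of the counts on both loci, the part of Rps7 in WT a, b and c was 58.5%, 59.8% and 58.9% for spleen, 58.5%, 62.1% and 63.7% for cLP, and 60.6%, 60.4% and 62.8% for siLP. For CARko spleen the values were 27.3%, 33.7% and 59.4%, for CARko cLP 28.7%, 30.9% and 59.8%, and for CARko siLP 29.9%, 28.8% and 61.3%. The 6 CARko libraries with endings a and b thus lay between 27.3% and 33.7%, and the 3 with ending c lay among the WT libraries, with nothing in between. The range of 36.4 percentage points was the widest of 36 gene and copy pairs with the copy at 20 CPM or more. The next pair, Rps12 and Rps12-ps3, ran from 22.1% to 44.0%, and the median range was 8.89 points. Gm6472 was higher in CARko on average (log2 fold change 0.59, SE 0.25, edgeR adjusted p = 0.805), which did not pass. The sum of both loci ran from 568 to 1355 CPM, and with copies summed the genotype difference of Rps7 was -0.04. What sets the division of the counts between the loci was not tested.

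**Figure D2:**
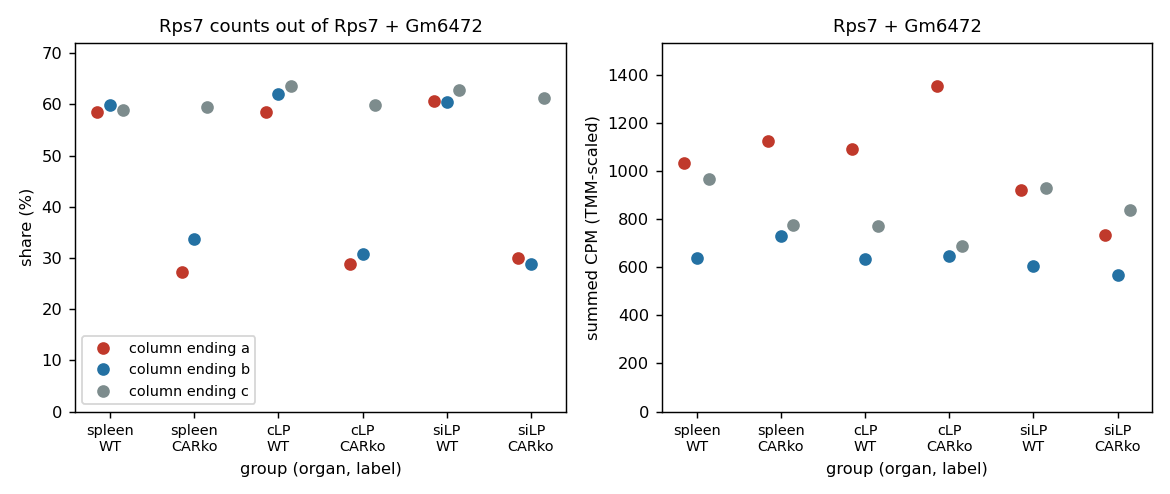
Left, Rps7 counts as a percent of the counts on Rps7 and Gm6472 together; right, the sum of both in CPM; each point is 1 library, by group and column ending. The CARko a and b libraries sit between 27.3% and 33.7%, the other 12 between 58.5% and 63.7%, while the sums overlap between the labels.

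The other genes with small p in the genotype comparison follow. Rpl39l had a log2 fold change of -3.15 (SE 1.26, edgeR adjusted p = 0.755), at levels near 0. Rps2, a small-subunit protein at the messenger RNA entrance, was at 642 to 996 CPM in spleen, 682 to 964 CPM in cLP and 565 to 992 CPM in siLP over both labels, and its averaged log2 fold change was -0.27 (SE 0.13, edgeR adjusted p = 0.859). Its WT and CARko libraries overlapped in spleen and siLP. In cLP they did not, with WT at 937, 824 and 964 CPM and CARko at 716, 682 and 712 CPM, yet the log2 fold change there of -0.37 (SE 0.23) had an adjusted p of 1.0 in edgeR's test. Rpl28 in siLP stood at -0.43 (SE 0.31, edgeR adjusted p = 1.0), and Rps12 in spleen at 0.56 (SE 0.48, edgeR adjusted p = 1.0).

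No ribosomal protein gene passed between organs either. The question was whether cells in the gut differ from those in spleen. In siLP against spleen, 0 of 84 passed averaged over labels, in WT and in CARko, beside 0.847%, 0.188% and 0.215% of all genes. In cLP against spleen, 0 of 84 passed likewise, beside 3.07%, 0.376% and 0.484% of all genes. In siLP against cLP, 0 of 84 passed in each, beside 0% of all genes. Averaged over labels, 1, 0 and 0 of the 84 had an unadjusted p under 0.05 in the 3 pairs, and DESeq2 also called 0. The median log2 fold change was -0.09 in siLP against spleen, 0.05 in cLP against spleen and -0.13 in siLP against cLP. The medians changed sign with the setting: scaled by total counts, cLP against spleen was -0.05 and siLP against cLP 0.05, and without the a libraries the 3 medians were 0.03, -0.11 and 0.16, and without the c libraries -0.22, 0.13 and -0.37. The erythroid and stromal marker counts given above also differed between organs, and their part here was not tested. Averaged over labels, the 95% interval lay within a 2-fold change in 80, 77 and 78 of the 84 genes. Within WT it did so in only 53, 60 and 52 of the 84, and within CARko in only 42, 55 and 45. For the difference of the genotype effect between organs, 0 of 84 passed in each of the 3 pairs, beside 0% of all genes. In siLP against cLP 1 gene had an unadjusted p under 0.05, beside 2.41% of all genes. In the other pairs 0 had, beside 2.265% for siLP against spleen and 1.24% for cLP against spleen. Here only 21 to 24 of the 84 intervals lay within a 2-fold change.

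**Figure D3:**
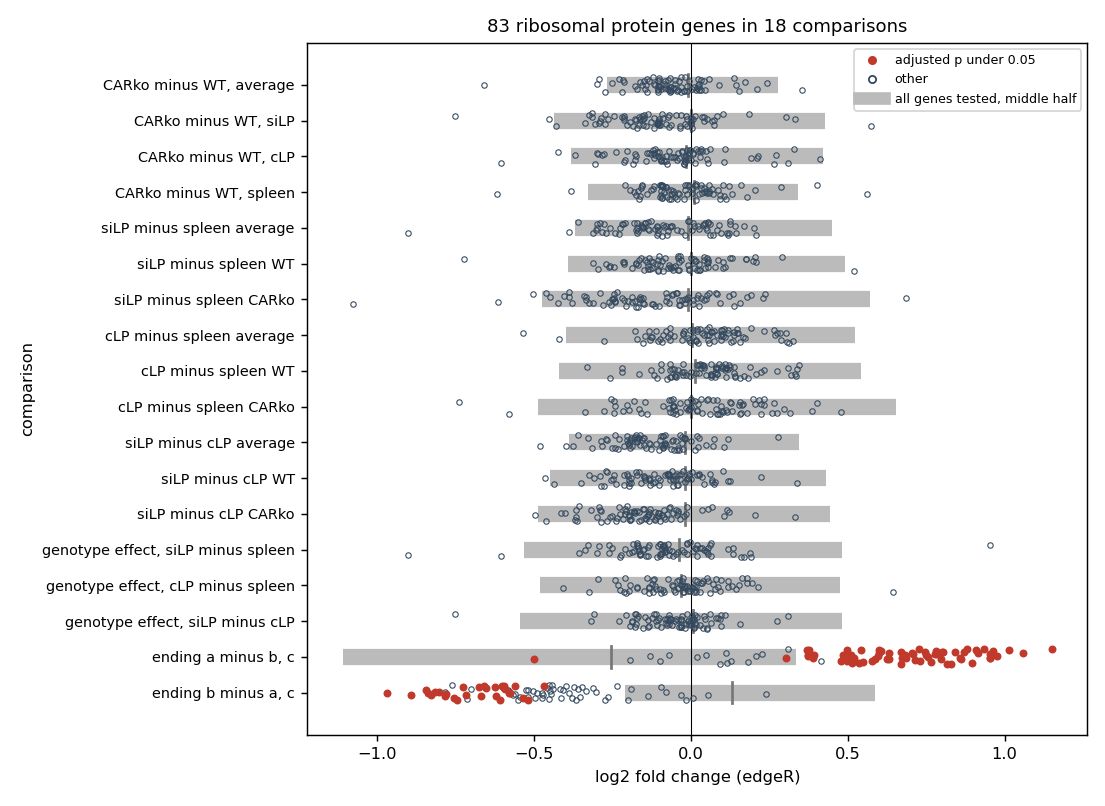
Log2 fold changes of 83 ribosomal protein genes in 18 comparisons (Rpl39l, near 0 counts, is left out); each circle is a gene, filled where edgeR's adjusted p was under 0.05, and the grey bar spans the 25th to 75th percentile of all genes tested, with a tick at the median. In the 16 comparisons of organ and genotype no circle is filled, and the 2 comparisons of column ending are the only ones with filled circles.

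Rps27l had the smallest unadjusted p of the averaged organ comparisons, and Rpl7l1, described next, the smallest adjusted p. In spleen it was at 600, 239 and 321 CPM in WT a, b and c, and at 749, 300 and 286 CPM in CARko. In cLP its WT libraries stood at 602, 159 and 209 CPM and its CARko libraries at 523, 195 and 176 CPM. In siLP all 6 libraries stood between 139 and 274.5 CPM, with CARko a the lowest. The a libraries of spleen and cLP were the 4 highest, and those of siLP were not high. The log2 fold change of siLP against spleen was -0.90 (SE 0.39, edgeR adjusted p = 0.464). That of cLP against spleen was called only without the 6 a libraries, at -0.62 with an adjusted p of 0.0466.

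Rpl7l1, which acts in assembly of the large subunit, was lowest in p for cLP against spleen. It was at 158, 106 and 89.1 CPM in spleen WT, 143, 117 and 89.7 CPM in spleen CARko, 140, 69.8 and 70.9 CPM in cLP WT, and 77.9, 64.6 and 67.2 CPM in cLP CARko. The c libraries of spleen were lower than the a library of cLP WT, so the organs overlapped. The log2 fold change was -0.53 (SE 0.26, edgeR adjusted p = 0.352), followed by Rpl10 at 0.33 (adjusted p = 0.513) and Rps13 at 0.31 (adjusted p = 0.592). In siLP against cLP the smallest p belonged to Rpl14. It was at 562 to 856 CPM in the siLP libraries and at 689 to 1257 CPM in those of cLP, with a log2 fold change of -0.40 (SE 0.20, edgeR adjusted p = 0.663). Rps3a1 and Rps6 followed Rps27l in siLP against spleen, at -0.30 and -0.28, with adjusted p of 0.728 and 0.735. Rps6, the small-subunit protein that S6 kinase phosphorylates, ran from 1173 to 1949 CPM in spleen and from 943 to 1570 CPM in siLP.

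Most of the variation of these genes among libraries ran with the column ending. Over 83 genes, the ending accounted for a median of 69.0% of the variance in log2 CPM and the group for 6.77%, while over all genes tested the figures were 21.4% and 28.8%. These figures are not adjusted for the number of levels, 3 endings and 6 groups. More levels take up more variance even without an effect, so the figures over all genes do not rank ending and group. In 78 of the 83 genes the ending's part was the larger, beside 6040 of the 14876 genes tested. With the group means and the ending fitted together, the a libraries were compared with the mean of b and c. Of the 84 genes, 67 were higher in a, beside 9.74% of all genes tested, and 1 was lower, beside 11.6% (edgeR, adjusted p under 0.05). The median log2 difference was 0.62, against -0.26 over all genes. Both subunits took part, with 40 of 50 large-subunit genes and 26 of 33 small-subunit genes higher, and medians of 0.57 and 0.73. When libraries were scaled by total counts alone, which moved the median of the genes to 0.30, 45 were higher and 6 lower. The latter were Rpl3, Rpl4, Rplp0, Rps2, Rps3 and Rpsa. The shares of all genes called under this scaling were not worked out. The raw shares of counts overlapped between a (5.20% to 6.16%) and c (5.07% to 6.28%). Other features of the libraries moved with the ending too. Mitochondrial genome genes took 3.70% to 3.98% of counts in the a libraries and 2.23% to 3.22% in the others, without overlap. Of 7 T cell markers 3 were higher in a and 0 lower, and their summed CPM had medians of 15564, 10706 and 8689 in a, b and c. Their part in the ribosomal protein difference was not tested.

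**Figure D4:**
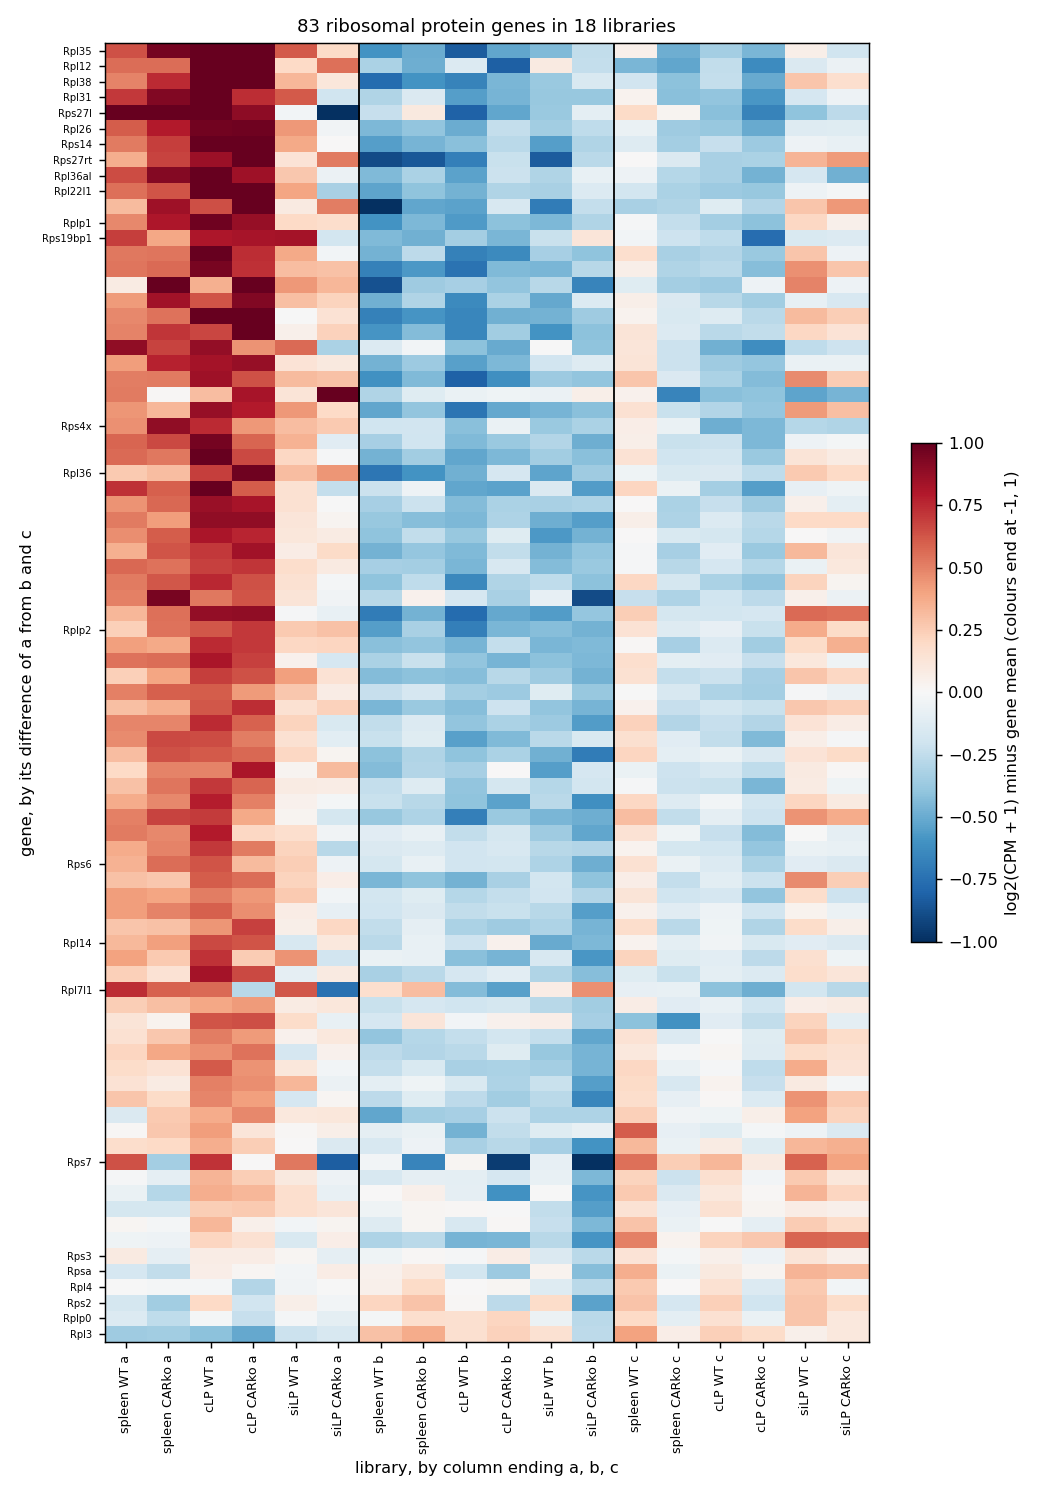
Each line is 1 of 83 ribosomal protein genes and each column 1 library, ordered by column ending and then by group; colour gives log2(CPM + 1) minus the gene's mean over the 18 libraries, with Rpl39l left out and some of the genes labelled. Most genes are red in the a libraries of spleen and cLP, paler in those of siLP, and blue in the b libraries, while Rpl3, at the bottom, is blue in a.

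The 10 largest differences of a from b and c were in Rpl35 (1.15), Rpl12 (1.059), Rpl38 (1.01), Rpl31 (0.98), Rps27l (0.96), Rpl26 (0.95), Rps14 (0.95), Rps27rt (0.95), Rpl36al (0.94) and Rpl22l1 (0.91), all as log2 fold changes. Rpl35 sits at the exit of the peptide tunnel. It was at 190, 238, 256, 252, 187 and 140 CPM in the a libraries (spleen WT, spleen CARko, cLP WT, cLP CARko, siLP WT, siLP CARko). It was at 80.3, 86.2, 67.9, 84.8, 89.4 and 103 CPM in the b libraries, and at 126, 86.6, 96.3, 88.8, 127 and 106 CPM in the c libraries. All 6 a libraries exceeded the other 12, and the test gave a standard error of 0.15 and an adjusted p of 0.000308 (edgeR). Rps4x, an X-linked small-subunit protein, was likewise at 1130 to 1744 CPM in the a libraries and at 673 to 987 CPM in the others. Rps6 was at 1281 to 2046 CPM in a and at 943 to 1468 CPM in the others, which overlap, with a log2 difference of 0.51 (SE 0.08, edgeR adjusted p = 0.000817).

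Rpl3, which lies by the peptidyl transferase centre, was the only gene lower in a. It was at 631, 634, 607, 564, 693 and 719 CPM in the a libraries, in the same order of groups. In the b libraries it was at 986, 1042, 901, 945, 897 and 673 CPM, and in the c libraries at 1068, 845, 950, 916, 834 and 867 CPM. Only siLP CARko b fell within the a range, and the log2 difference was -0.50 (SE 0.10, edgeR adjusted p = 0.00332). Rplp0, the base of the stalk that recruits elongation factors, stood at -0.19 (SE 0.09, edgeR adjusted p = 0.132) and did not pass, whereas its stalk partners Rplp1 and Rplp2 were higher in a by 0.90 and 0.67 (adjusted p = 0.000747 and 0.00106). Rpsa, the laminin-receptor protein of the small subunit, stood at -0.07 (adjusted p = 0.670) and Rps2 at -0.13 (adjusted p = 0.469). Among the paralog pairs, Rpl22l1 and Rpl22 were both higher in a (0.91 and 0.54), as were Rpl36al and Rpl36a (0.94 and 0.69) and Rps27l and Rps27 (0.96 and 0.91). Of Rpl7 and Rpl7l1, Rpl7 was higher in a (0.52) and Rpl7l1, at 0.42, did not pass. Rps19bp1 was higher in a by 0.88 (adjusted p = 0.00353).

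The b libraries went the other way, in a comparison with the mean of a and c that was added after the data were seen. It uses the same libraries as the comparison of a with b and c. High values in a lower the difference of b here, so both comparisons are not independent. Of the 84 genes, 30 were lower in b, beside 0.444% of all genes tested, and 0 were higher. The median log2 difference was -0.51, against 0.13 over all genes. The largest were Rps27rt (-0.97), Rps21 (-0.89), Rps27 (-0.85), Rpl37 (-0.84) and Rps29 (-0.83). Rplp2 was at 308 to 396 CPM in the 6 b libraries and at 424 to 809 CPM in the other 12, without overlap, with a log2 difference of -0.74 (SE 0.12, edgeR adjusted p = 0.0216). Rpl36 was at 375 to 552 CPM in b and at 519 to 1220 CPM in the others, with a log2 difference of -0.73 (SE 0.12, edgeR adjusted p = 0.0228). DESeq2 called 64 genes lower. For this count, and for those without 1 library that follow, the shares of all genes called were not worked out. Leaving out 1 library at a time gave 0 to 67: the count was 0 without cLP CARko b, cLP WT b, siLP WT b, spleen CARko b, spleen WT b or spleen WT c, 1 without siLP CARko c, and 67 without siLP CARko a. It was 3 without siLP WT c, 7 without cLP CARko a, spleen CARko a or spleen CARko c, 10 without cLP WT c and 16 without spleen WT a. In 24 genes the b library was the lowest of its group in all 6 groups, and in 19 the a library was the highest in all 6. This order was not counted over all genes, so these counts have no share to stand beside.

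Among shorter transcripts, length moved with both differences, which are not independent, in these genes and in others. The 20 genes under 500 bases had a median log2 difference of 0.78 in a, the 25 from 500 to 750 bases 0.67, the 22 from 750 to 1000 bases 0.53 and the 12 from 1000 to 1500 bases 0.51. Other genes at 50 CPM or more stood at medians of 0.84, 0.68, 0.49 and 0.12 in the same classes, and at -0.22 from 1500 to 2000 bases. Beyond that the other genes turned back, to -0.16, 0.08 and 0.16 in the classes from 2000, 3000 and 5000 bases. The 3 ribosomal protein genes from 1500 to 2000 bases had medians of -0.07 in a and -0.10 in b, and 0 of them passed in either. The 2 ribosomal protein genes with the longest transcripts, Rpl5 and Rps20, stood at 0.79 and 0.60 in a. Their lengths of 2045 and 3706 bases hold only 891 and 357 coding bases and may be too long. Of the counts on Rpl5 and its copies, 98.1% lay on the copies, so this pair gives no firm reading of length. In b the ribosomal protein genes of the classes up to 1500 bases stood at -0.72, -0.55, -0.39 and -0.41. Other genes there stood at -0.52, -0.31, -0.13 and 0.04. Below 1000 bases, 83.6% of the 67 ribosomal protein genes and 63.6% of 634 other genes were higher in a. The same classes gave 40.3% and 3.63% lower in b. The differences between these shares were not tested. Across the 83 genes Spearman's rho of length with the log2 difference was -0.42 in a and 0.65 in b, as a description over genes that share libraries. Rpl3 and Rplp0, at 1351 and 1358 bases, are among the longer ones, and Rps2 is at 998. The share of all counts on other genes under 1 kb was 30.3% to 37.7% in the a libraries and 25.2% to 30.2% in the rest. The part of length, or of fewer detected genes, in the ribosomal protein difference was not tested.

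**Figure D5:**
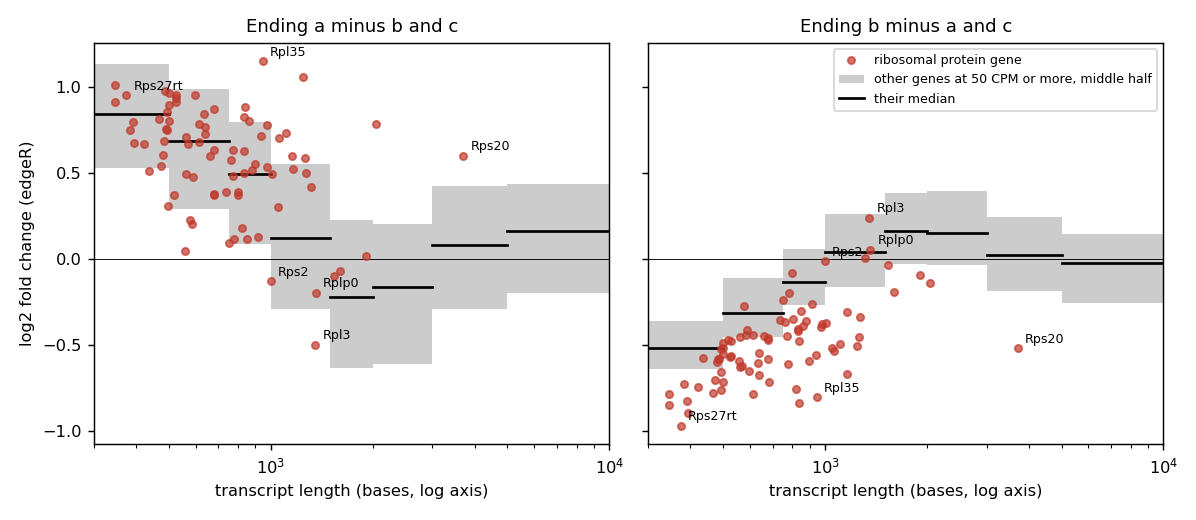
Log2 fold change of column ending (a against b and c, left; b against a and c, right) by transcript length in bases on a log axis; red points are 83 ribosomal protein genes, and grey boxes with black lines give the 25th to 75th percentile and the median of other genes at 50 CPM or more in each length class. On the left the other genes' medians go from 0.84 to 0.12 up to 1500 bases, while the ribosomal protein genes go from 0.78 to 0.51, and on the right many of the points under 1 kb lie below the medians of the other genes.

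The genes moved together across libraries. Over 18 libraries the median Pearson r of log2 CPM was 0.79 among 3403 pairs of 83 genes, and 77.0% of pairs were above 0.5. After the group means were subtracted it was 0.86, and after the ending was removed as well 0.73. The points share their libraries and scaling, so this is a description. Rpl35a followed the mean of the others most closely, with r of 0.99. Rpl3 ran against it at -0.73, and Rplp0 stood at -0.28, Rpl4 at -0.06 and Rps2 at 0.01. Within groups the median coefficient of variation was 29.9%, from 5.67% for Rps3 to 54.1% for Rps27l.

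Other parts of the translation machinery gave the following. Fau and Rack1, ribosomal genes outside the symbol rule, did not pass in the averaged organ and genotype comparisons. Both were higher in a, Fau by 0.64 and Rack1 by 0.29 (edgeR adjusted p = 0.000353 and 0.0395). Fau was also lower in b, at -0.49 (adjusted p = 0.0345). Of 41 ribosome biogenesis factors, 0 passed for organ or genotype averages. In a, 4 were higher and 4 lower, near the shares over all genes (9.74% higher and 11.6% lower, which also stand beside the counts in a that follow), with Npm1 at 0.53, Nop10 at 0.95, Ncl, a nucleolar protein that binds the precursor of ribosomal RNA, at -0.84, and Eif6, which keeps free large subunits apart from small ones, at -1.11. The list's median in a was -0.31, against 0.62 for the ribosomal protein genes and -0.26 over all genes. Of 20 translation factors with TOP messages, 0 passed for organ or genotype, and 5 were higher and 5 lower in a, among them Tpt1 at 0.86 and Eef2 at -0.61. Of 21 other translation factors, 7 were higher and 5 lower in a, with Eif2s2 at 1.44 and Eif3c at -0.86, and 0 passed for organ or genotype averages.

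The lists of regulators and of other gene groups gave these counts between organs, beside 0.847% of all genes called in siLP against spleen and 3.07% in cLP against spleen. Of 20 tested genes of mTORC1 and Myc control, 1 was higher in siLP and 2 in cLP than in spleen. Mxd1, which competes with Myc for Max, was higher by 2.06 in siLP (SE 0.33, edgeR adjusted p = 0.00381) and by 3.02 in cLP (SE 0.34, adjusted p = 0.000137), and Mxi1, of the same family, by 1.80 in cLP (adjusted p = 0.0401). Myc itself stood at 0.78 in siLP and 0.31 in cLP and did not pass (adjusted p = 0.517 and 0.818). Of 13 genes of ribosomal stress and rescue, Cdkn1a, the cell cycle inhibitor p21, was higher in cLP by 1.73 (adjusted p = 0.0149). Of 78 mitochondrial ribosomal protein genes, 2 were lower in cLP, Mrps18b by -1.09 and Mrpl16 by -0.85 (adjusted p = 0.0331 and 0.0482). Their median was -0.24 in cLP and -0.32 in siLP against spleen, beside 0.00 and -0.01 over all genes, and 29 were higher and 4 lower in a. Of 9 snoRNA host genes 1 was analysed here, Rabggtb, which was higher in a by 0.97 (adjusted p = 0.00289). Of 8 immediate early genes, known to respond within minutes to stimulation or tissue handling, 7 were higher in siLP and 6 in cLP than in spleen, with Nr4a1 at 5.34 and 4.73 and medians of 2.51 and 2.09.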

How the data were processed

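The deposited values are estimated counts per gene, per the file headers, 1 column per library. Per the submitters' processing notes, Salmon, DESeq2 and mm10 were used, with no versions. Per the labels' protocols, cDNA was made with the SMART-Seq v4 kit and libraries with NEBNext Ultra II DNA; the sources used here do not state the strand setting of the counting. Analysis used the 18 count columns; a further 37 columns stayed unused. Columns name organ and CD45.1 status; CD45.1-negative columns were taken as CARko by elimination.

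Gene names came from GENCODE vM21 (GRCm38), which matched 34083 of 34162 identifiers. Counts were rounded, filtered with filterByExpr (14876 genes left), scaled by TMM and fitted with edgeR 4.0.16 glmQLFit (6 group means, all 18 libraries), tested two-sided with glmQLFTest and adjusted by Benjamini-Hochberg over all genes tested, at a threshold of 0.05. The column ending was tested with the ending as an added term. Standard errors were obtained by dividing a log2 fold change, without its sign, by the root of its F statistic. CPM is on TMM-scaled sizes, and CPM per kilobase divides it by transcript length. A floor of 3 counts is 0.118 to 0.153 CPM. Without molecular identifiers, PCR copies are counted as reads, and the floor covers counting error only. Copies were found with blastn 2.17.0. Versions were R 4.3.3, limma 3.58.1 and DESeq2 1.42.0.

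The fit was tested on simulated counts with 100 changed genes per fold size. For the genotype average over 14876 genes, 25 of 25 genes changed 4-fold (log2 of 2) at 50 CPM or more were recovered, and 10 of 22 changed 2-fold (log2 of 1). For siLP against spleen averaged over labels, over the same 14876 genes, 15 of 16 changed 4-fold and 4 of 17 changed 2-fold were recovered at that level.

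The genes, lists and tests were chosen with earlier results of these data known, so no list carries a test of its own. In each comparison, genes past the threshold were named, at most 10 per direction, or else those with the smallest p; the paralogs, Rps6, Rpsa, the stalk genes and the highest and lowest per length were always named, and list genes up to 4 per comparison. Long sets were shortened, and some genes are not reported here. Alternatives were other scalings, no filter, DESeq2, the ending as a term, libraries left out, only the groups compared, and copies summed. Summing copies, leaving out the b or the c libraries and comparing b with a and c were chosen after seeing the data. Levels were planned in TPM, and CPM per kilobase was used in its place.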

Additional observations from a re-analysis of the deposited data

How the results depend on the processing

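No paired analysis was possible because the count columns carry no replicate numbers, and nothing says that columns with the same ending share a host or day. A fit with that ending as a term, matched by ending only, gave 0 ribosomal protein genes in the 16 organ and genotype comparisons. Those at an unadjusted p under 0.05 went from 2 to 5 for the genotype average and from 1 to 5 for siLP against spleen. With the ending as a term, the shares of all genes at that unadjusted p were not worked out. Of 112 genotype, 84 difference and 252 organ combinations of comparison and alternative, 112, 84 and 251 gave 0. The exception was cLP against spleen averaged over labels without the 6 a libraries, with 1 gene, Rps27l (log2 fold change -0.62, adjusted p = 0.0466), and the cause was not tested. For the column ending, scaling by total counts alone gave 6 genes lower in a. DESeq2 gave 64 lower in b, where leaving out 1 library gave 0 to 67. The shares of all genes called under these alternatives were not worked out, and the cause was not tested. Of the 14 log2 fold changes of single genes recomputed under each alternative, 0 changed sign. Rps7 in the genotype average ran from -0.98 to -0.04 over 28 alternatives, with adjusted p from 0.114 to 1.0. Without the 50 highest other genes in the denominator the mean share of counts was 6.59% to 7.04% across groups. With 3 libraries a group the median standard error of a genotype difference within an organ was 0.37 without the ending in the fit.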
